A study of Mus musculus with 28 samples.

Results

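Col25a1, Ano5, Wnk4, Kctd16, Iqcj and Prr5 are 6 genes of the mouse, out of 51912 in the deposited table, chosen by their higher level in nuclei of colonic than of small intestinal enteric neurons. The choice used the neuronal libraries of mice with a specific pathogen-free microbiota (SPF) or of germ-free mice (GF), so the difference between segments in those libraries is described here without a test. Nuclear RNA was sequenced from the longitudinal muscle and myenteric plexus of C57BL/6 mice. All animals, in every group, had received intravenous AAV9-CaMKII-EGFPKASH, a virus that marks the nuclear envelope with a green fluorescent protein under the CaMKII promoter, 5 weeks before. Nuclei that carried the fluorescence when sorted form the fraction labelled neuronal, and the remaining nuclei that labelled non-neuronal. Both microbiota states were sampled in both gut segments and both fractions, which gives 28 libraries in 8 groups, with 4 libraries in each SPF group and 3 in each GF group. Neurons that the virus did not reach or in which the promoter was not active would be sorted into the non-neuronal fraction.

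Enteric neurons of the myenteric plexus lie between the muscle layers of the gut and drive its movements, and they differ along the gut in wiring and in the genes they use. The 6 genes belong to different families. Col25a1 encodes a collagen anchored in the membrane, Ano5 a member of the anoctamin family of channels and lipid scramblases, Wnk4 a kinase that sets the activity of cation-chloride cotransporters, Kctd16 an auxiliary subunit of GABAB receptors, Iqcj a protein with a calmodulin-binding IQ motif, and Prr5 a subunit of mTOR complex 2.

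RefSeq (GRCm38.p6) promoter windows, 250 bases before to 50 after an annotated start, are shown for 4 genes whose colonic neuronal libraries lay above the small intestinal ones in both microbiota states, because these genes share that pattern. Kctd16 shares it too and is not among the windows shown. All 4 windows are read on the plus strand, 5′ to 3′: Col25a1 at chr3:130180595-130180894, Ano5 at chr7:51510779-51511078, Wnk4 at chr11:101260317-101260616 and Iqcj at chr3:67891970-67892269. The Col25a1 window belongs to a start inside the gene's annotated span, which begins at 130131501. The windows of Ano5, Wnk4 and Iqcj lie at the beginning of the gene's span. Capitals mark matches to 7 motifs searched on both strands: the AHR-ARNT core TGCGTG, the octamer ATGCAAAT, the cyclic AMP response element TGACGTCA, the E-box CAGCTG, the homeodomain core TAATTA, the GC box GGGCGG and the TATA box TATAAA.
Col25a1: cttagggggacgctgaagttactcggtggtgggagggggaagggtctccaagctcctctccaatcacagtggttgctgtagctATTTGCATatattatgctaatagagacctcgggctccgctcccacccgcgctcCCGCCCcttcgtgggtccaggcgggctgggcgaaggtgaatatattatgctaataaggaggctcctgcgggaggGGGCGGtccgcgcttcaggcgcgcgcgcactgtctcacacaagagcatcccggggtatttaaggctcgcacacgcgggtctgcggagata
Ano5: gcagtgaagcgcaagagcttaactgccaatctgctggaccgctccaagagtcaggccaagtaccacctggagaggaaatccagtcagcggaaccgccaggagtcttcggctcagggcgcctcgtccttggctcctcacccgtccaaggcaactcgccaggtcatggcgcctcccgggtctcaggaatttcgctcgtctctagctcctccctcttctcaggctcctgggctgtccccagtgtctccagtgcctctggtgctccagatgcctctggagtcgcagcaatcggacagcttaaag
Wnk4: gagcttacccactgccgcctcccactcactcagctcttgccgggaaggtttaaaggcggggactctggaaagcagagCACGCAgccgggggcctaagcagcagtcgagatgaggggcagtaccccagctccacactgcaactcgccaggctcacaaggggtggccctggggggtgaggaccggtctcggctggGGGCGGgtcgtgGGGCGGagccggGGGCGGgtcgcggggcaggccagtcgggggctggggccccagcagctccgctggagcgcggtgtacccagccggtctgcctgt
Iqcj: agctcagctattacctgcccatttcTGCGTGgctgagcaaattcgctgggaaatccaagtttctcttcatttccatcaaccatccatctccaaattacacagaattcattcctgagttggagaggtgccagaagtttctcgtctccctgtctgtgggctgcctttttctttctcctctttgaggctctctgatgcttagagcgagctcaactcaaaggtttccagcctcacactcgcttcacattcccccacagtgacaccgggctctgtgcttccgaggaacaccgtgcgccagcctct

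The Col25a1 window held the octamer, on the minus strand with its first base at -167 from the start, and GC boxes at -114 and -40. Among 32851 promoter windows of 300 bases, 1.74% held the octamer and 35.7% the GC box. The Col25a1 window also held a 16-base run, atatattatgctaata, at -161 and again at -75, which was found in no other window. Repeated runs were listed for each window, with lengths of 9 bases in Ano5 and Iqcj and 12 in Wnk4. The Col25a1 run is named because it was the longest. A run of that length would rarely recur in other windows whatever its letters, so nothing is read from its absence there. Wnk4 and Iqcj each held 1 match to the core recognised by the aryl hydrocarbon receptor with its partner, at -173 and at -225, against 8.47% of all windows, and Wnk4 held 3 GC boxes between -57 and -33. The Ano5 window matched none of the 7 motifs. GC content was 60.7% for Ano5, 70.7% for Wnk4 and 51.0% for Iqcj, with that of Col25a1 between Iqcj and Ano5 and a median of 52.7% over all windows. No motif was shared by the 4 windows. A match describes letters in a window, and binding was not measured here.

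Before the levels, 1 difference between libraries bears on every SPF value. The labels give no sex, but in the 8 SPF libraries numbered 3 and 4 the X-inactivation RNA Xist stood at 5594 to 16058 CPM (counts scaled to the same total in every library) and 4 Y-linked genes summed to 0.903 to 5.85 CPM. In the 8 SPF libraries numbered 1 and 2 Xist stood at 7.12 to 63.0 CPM and the Y-linked genes at 379 to 674 CPM, and the 12 GF libraries were alike, with Xist at 8.06 to 19.6 CPM and the Y-linked genes at 131 to 733 CPM. For the 6 genes, SPF calls, ratios between segments and shares between fractions are therefore also given with replicates 1 and 2 only. This is done where these replicates change the call or move the value by over 1.5 times. Other SPF values, such as the levels of other genes and annotated units, carry no such check. Library totals ranged from 2394481 to 7321875 counts, so that 3 counts, the most that a count of 0 allows, correspond to 0.410 to 1.25 CPM. The sum of 12 general neuron markers was 3790 to 5993 CPM in the 14 neuronal libraries, and its group means were 4903 CPM in SPF colon, 4780 in SPF small intestine, 5557 in GF colon and 5230 in GF small intestine, and edgeR called none of the 12 between segments in either state. In bulk libraries, fewer cells of a type and less RNA per cell cannot be told apart.

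**Figure D1:**
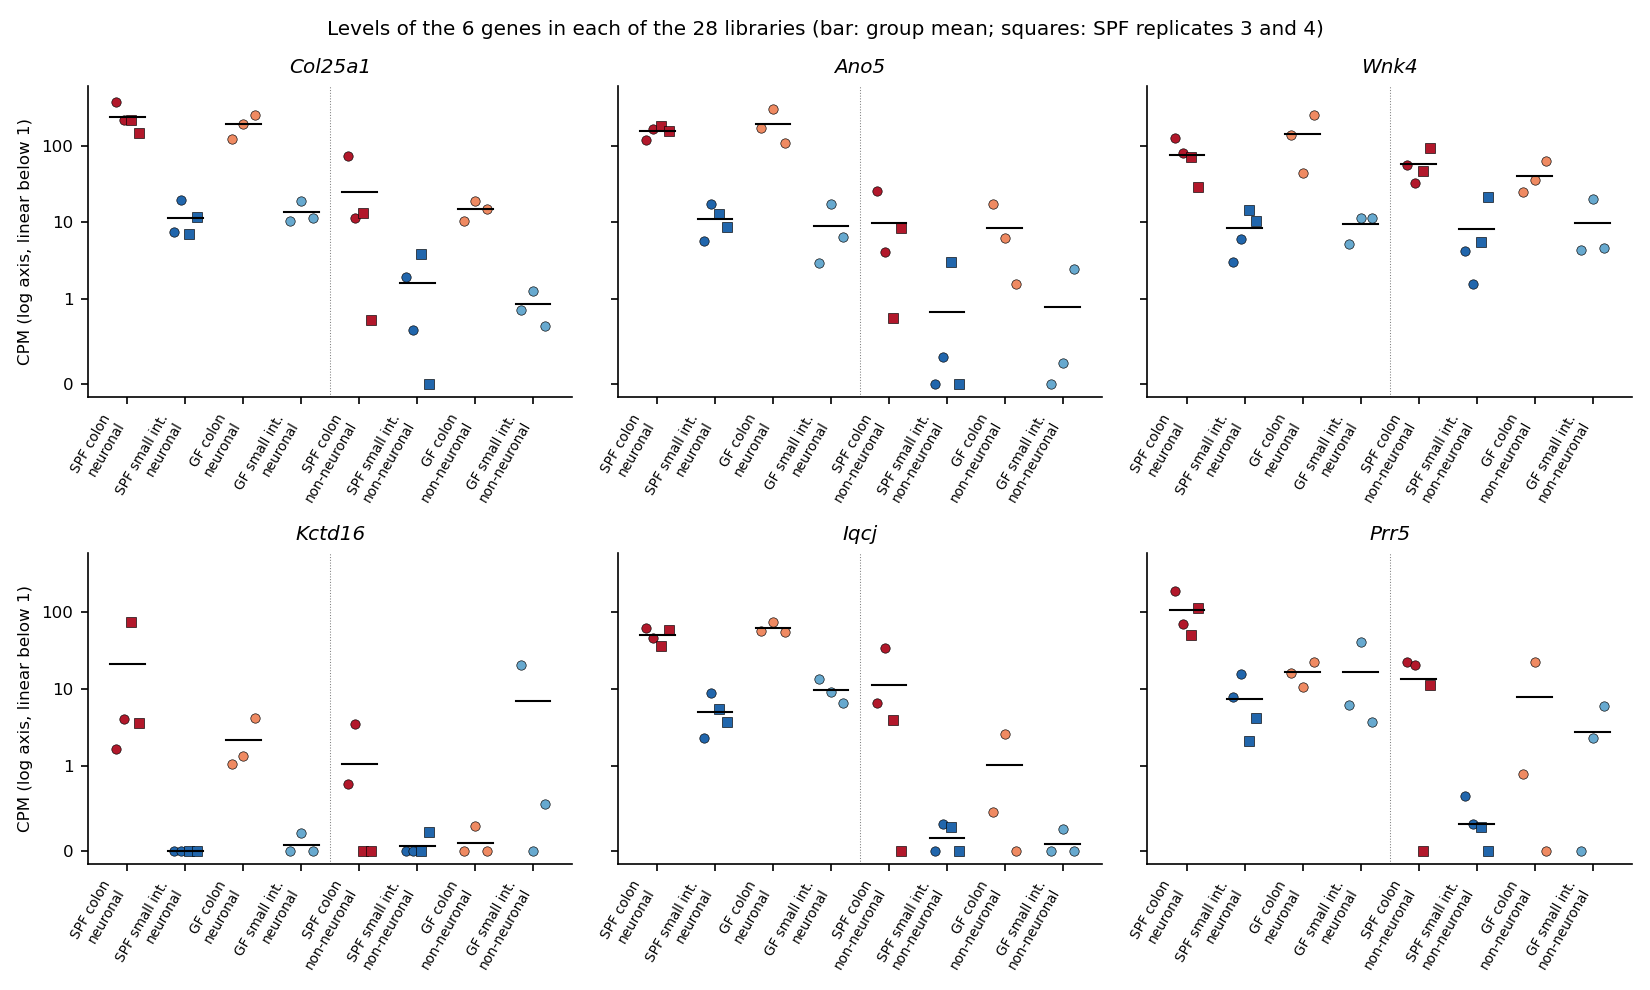
Level of each gene in each of the 28 libraries, in CPM on a log axis that is linear below 1, by group. Points are libraries, bars are group means and squares are SPF replicates 3 and 4. Col25a1, Ano5, Wnk4 and Iqcj sit higher in the colonic neuronal libraries in both SPF and GF mice, while Prr5 does so in SPF mice and Kctd16 has 1 high library at 75.1 CPM.

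Col25a1 (ENSMUSG00000058897, chromosome 3, 130131501 to 130599877, GRCm38, plus strand) is a transmembrane collagen that takes part in the growth of motor axons into muscle. In SPF colonic neuronal libraries 1 to 4 it stood at 368, 215, 216 and 145 CPM, and in SPF small intestinal neuronal libraries at 7.53, 19.4, 7.10 and 11.8 CPM. The GF values were 122, 192 and 254 CPM in the colon against 10.4, 19.3 and 11.4 CPM in the small intestine. Each colonic library lay above each small intestinal one in both states. The means were 236 ± 94.0 against 11.5 ± 5.72 CPM (SD, n = 4) and 189 ± 66.1 against 13.7 ± 4.88 CPM (SD, n = 3), ratios of 20.6 and 13.9. In the non-neuronal fraction Col25a1 stood at 73.4, 11.5, 13.3 and 0.756 CPM in SPF colon, 10.4, 18.9 and 15.2 CPM in GF colon, and at most 3.90 CPM in the small intestine.

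Inside the span of Col25a1 lie 3 further units on the same strand that the annotation classes as TEC, and none shares an exon base with it. Their segment difference comes from the libraries that chose Col25a1 and is described without a test. Gm43210 averaged 64.9 ± 39.6 CPM in SPF colonic and 6.07 ± 1.60 CPM in SPF small intestinal neuronal libraries (SD, n = 4), and 66.6 ± 26.4 against 2.14 ± 1.25 CPM in GF libraries (SD, n = 3). Gm43211 averaged 10.98 against 0.883 CPM in SPF and 55.2 against 0.647 CPM in GF libraries. Gm42837 averaged 27.0 against 0.0546 CPM in SPF and 30.1 against 1.16 CPM in GF libraries. All 3 units were thus higher in colonic libraries, as Col25a1 was. In the 14 non-neuronal libraries the group means of the 3 units did not exceed 5.46 CPM. Reads from unspliced Col25a1 RNA in these nuclear libraries would be counted in the same units, and whether they were was not tested.

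**Figure D2:**
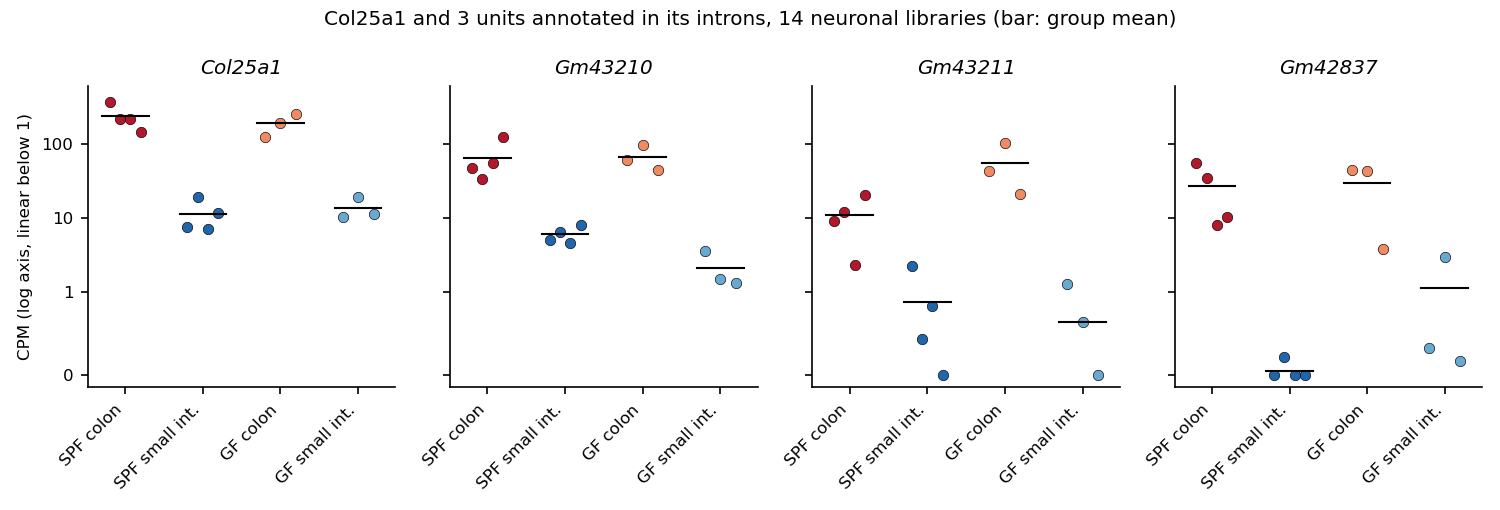
CPM of Col25a1 and of the units Gm43210, Gm43211 and Gm42837, which lie within its span without sharing exon bases, in the 14 neuronal libraries on a log axis that is linear below 1. Points are libraries and bars are group means; each of the 3 units has the higher mean in the colon in both states.

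Ano5 (ENSMUSG00000055489, chromosome 7, 51511029 to 51598709, plus strand) belongs to the anoctamins, and its loss in humans causes a muscular dystrophy. SPF colonic neuronal libraries held 119, 164, 183 and 156 CPM and SPF small intestinal ones 5.77, 17.2, 13.0 and 8.61 CPM. GF colonic neuronal libraries held 169.5, 304 and 109 CPM and GF small intestinal ones 2.92, 17.4 and 6.51 CPM. Again no colonic library overlapped a small intestinal one. The ratio of means was 13.96 in SPF mice (155.5 ± 26.8 against 11.1 ± 5.02 CPM, SD, n = 4) and 21.7 in GF mice (194 ± 99.7 against 8.93 ± 7.51 CPM, SD, n = 3). Without GF small intestinal neuronal replicate 2 the GF ratio was 41.2.

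Wnk4 (ENSMUSG00000035112, chromosome 11, 101260567 to 101277409, plus strand) encodes a kinase of the "with no lysine" family that acts through the kinases SPAK and OSR1 on chloride cotransporters. SPF colonic neuronal libraries held 125, 80.7, 71.3 and 28.7 CPM against 3.01, 6.11, 14.6 and 10.3 CPM in the small intestine. GF colonic neuronal libraries held 139, 43.5 and 249.3 CPM against 5.20, 11.6 and 11.5 CPM. The groups did not overlap, and the lowest colonic value, 28.7 CPM, was the closest approach. The ratio of means was 8.98 in SPF mice, or 22.6 with replicates 1 and 2 only, and 15.3 in GF mice, or 9.70 without GF colonic neuronal replicate 3.

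Kctd16 (ENSMUSG00000051401, chromosome 18, 40256962 to 40531630, plus strand) was the least abundant of the genes. SPF colonic neuronal libraries held 1.65, 4.06, 75.1 and 3.62 CPM, and all 4 SPF small intestinal neuronal libraries held 0 counts. GF colonic neuronal libraries held 1.06, 1.35 and 4.13 CPM, or 22 counts in all, against 0, 0.214 and 0 CPM, or 1 count in all, in the GF small intestine. The SPF mean was at least 16.8-fold higher in the colon, taking 3 counts in a library of that group, at most 1.25 CPM, for the small intestine. That bound rests on replicate 3, without which the colonic mean was 3.11 CPM and the bound 2.48-fold. It was 3.79-fold with replicates 1 and 2 only and 28.03-fold without SPF small intestinal neuronal replicate 3. Apart from that library, the colonic neuronal libraries of both states held 4 to 15 counts each.

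Iqcj (ENSMUSG00000051777, chromosome 3, 67892220 to 68056593, plus strand) lies upstream of Schip1, and read-through transcripts of both are annotated as Iqschfp, a form known from axon initial segments and nodes, where ankyrin holds it. SPF colonic neuronal libraries held 61.5, 46.3, 36.7 and 58.2 CPM of Iqcj against 2.26, 8.73, 5.43 and 3.69 CPM in the small intestine, and GF libraries 57.7, 74.5 and 54.6 against 13.6, 8.999 and 6.51 CPM. The segments did not overlap in either state. Colonic means were 50.7 ± 11.4 CPM (SD, n = 4) and 62.2 ± 10.7 CPM (SD, n = 3), and the ratios to the small intestine were 10.1 and 6.40. Iqcj shares 372 exon bases, 23.6% of its exon length, with Iqschfp, so reads may have been divided between them. Iqschfp was at 0 CPM in 11 of the 14 neuronal libraries and reached 17.6 CPM in 1 SPF small intestinal one.

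Prr5 (ENSMUSG00000036106, chromosome 15, 84669620 to 84703673, plus strand) encodes Protor-1, which binds Rictor in mTOR complex 2. SPF colonic neuronal libraries held 187, 69.8, 49.7 and 114.5 CPM against 7.78, 15.7, 2.09 and 4.18 CPM in the small intestine, a ratio of means of 14.1. GF colonic neuronal libraries held 16.2, 10.4 and 22.7 CPM against 6.17, 40.7 and 3.67 CPM, a ratio of 0.977. The SPF segments did not overlap and the GF segments did. Without GF small intestinal neuronal replicate 2 the GF ratio was 3.34, and without SPF small intestinal neuronal replicate 2 the SPF ratio was 22.5. Every SPF colonic neuronal library lay above every GF colonic neuronal one, by a ratio of means of 6.40, which held for 3.92% of the genes compared. Since the SPF colonic values helped to choose Prr5, that difference has no test here.

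Levels can be compared between genes only per length. Per kb of exon, SPF colonic neuronal means were 54.9 CPM per kb for Prr5, 32.1 for Iqcj, 19.9 for Ano5, 18.4 for Wnk4, 18.2 for Col25a1 and 6.07 for Kctd16, or 0.895 for Kctd16 without replicate 3. The order in GF colonic neuronal libraries was Iqcj at 39.4 CPM per kb, Wnk4 at 34.7, Ano5 at 24.8, Col25a1 at 14.6, Prr5 at 8.58 and Kctd16 at 0.627. Ano5, Wnk4 and Col25a1 differed in SPF libraries by less than their spread.

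The fit over all genes, edgeR's quasi-likelihood F test with Benjamini-Hochberg adjustment, gives the background for the segment difference in neuronal libraries. In SPF mice 0.249% of the genes tested were called higher in the colon, and all 6 members were among these 43 genes. In GF mice 0.133% were called, and Col25a1, Ano5 and Wnk4 were among these 23. Fitted log2 fold changes in SPF mice were 4.19 for Col25a1, 3.67 for Ano5, 3.02 for Wnk4, 3.19 for Iqcj and 3.67 for Prr5. In GF mice they were 3.82, 4.48, 3.92, 2.73 and 0.04 in the same order. No fitted value is given for Kctd16, because with 0 counts in the SPF and 1 count in the GF small intestinal libraries it depends on the prior count of the fit, and the bound and counts above stand in its place. Libraries of the 2 segments did not overlap, with the colon higher, for 6 members in SPF mice and 5 in GF mice, against 3.66% and 5.16% of genes at a mean of 1 CPM or more in either group. Since this contrast chose the members, these counts are given for description only. The mitochondrial share of counts also separated the segments in neuronal libraries, at 0.423% to 0.598% in SPF colon against 2.75% to 6.82% in SPF small intestine and at 0.867% to 1.06% against 3.47% to 6.08% in GF mice. Its part in the members' difference was not tested.

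Neuronal and non-neuronal nuclei were compared as the mean of both segments with equal weights, so that the difference between segments in neurons did not enter. The neuronal libraries are nevertheless those that chose the members, and a gene had to be present in colonic neuronal nuclei to be chosen. The fraction differences of the members are therefore a description, with no p. A member's call here only marks where the fit over all genes placed it and is no test of that gene. Nothing is read from the counts of calls. In SPF mice Col25a1, Ano5, Iqcj and Prr5 were called higher in neuronal nuclei, 4 of 6 members against 13.2% of the 20964 genes tested, and the median log2 fold change of the 6 was 3.18 beside 0.01 over all genes. The log2 fold change was 2.99 for Col25a1 (SE 0.56), 3.77 for Ano5 (SE 0.71), 3.37 for Iqcj (SE 0.85) and 3.64 for Prr5 (SE 0.92). With SPF replicates 1 and 2 only, Iqcj and Prr5 were not called, at log2 fold changes of 2.92 and 3.41.

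In GF mice Col25a1 (3.53 on the log2 scale, SE 0.67), Ano5 (3.53, SE 0.80) and Iqcj (6.12, SE 1.09) were called higher in neuronal nuclei, 3 of 6 members against 9.88% of genes, with a median of 2.56 for the 6 beside -0.02 over all genes. Prr5 was not called, with a log2 fold change of 1.59 (SE 0.94). Without GF colonic non-neuronal replicate 2, in which Prr5 stood at 22.6 CPM against 0.907 and 0 CPM in the others of its group, its log2 fold change was 3.44 and it was called, as under no other of its 19 alternatives. Kctd16 was not called in either state, with log2 fold changes of 1.28 (SE 4.42) and -1.39 (SE 1.70). These too depend on the prior count of the fit, as Kctd16 had 0 counts in SPF and 1 count in GF small intestinal neuronal libraries. Its highest non-neuronal value, 20.3 CPM, came from 1 GF small intestinal library, while the others of that group held 0 and 0.546 CPM.

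Wnk4 was not called between fractions in either state. SPF colonic non-neuronal libraries held 56.2, 32.7, 47.0 and 91.9 CPM and GF ones 25.0, 35.2 and 62.3 CPM. SPF small intestinal non-neuronal libraries held 4.21, 1.58, 5.57 and 21.4 CPM and GF ones 4.36, 20.4 and 4.64 CPM. The log2 fold change between fractions was 0.14 (SE 0.50) in SPF and 0.76 (SE 0.57) in GF mice, and neither value shows that the fractions are equal. The mean of Wnk4 in SPF colonic non-neuronal libraries was 74.5% of that in SPF colonic neuronal libraries, whereas the 12 neuron markers reached 25.2%, Col25a1 10.5% and Ano5 6.31%. With SPF replicates 1 and 2 only, the share was 43.2% for Wnk4, 34.4% for the neuron markers, 14.6% for Col25a1 and 10.6% for Ano5. Without SPF colonic non-neuronal replicate 1 it was 3.61% for Col25a1 and 2.89% for Ano5. In GF colon the shares were 28.3% for Wnk4, 18.5% for the neuron markers, 7.83% for Col25a1 and 4.31% for Ano5. Wnk4 was at 44.6% without GF colonic neuronal replicate 3, and Ano5 at 2.03% without GF colonic non-neuronal replicate 1.

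The segment difference was then looked at in non-neuronal nuclei, which the choice of genes did not use. None of the 5 members tested was called, in SPF or GF mice, while 0.558% and 0.219% of the 18267 genes tested were called higher in the colon. Kctd16 did not pass the low-count filter. Log2 fold changes in SPF mice were 3.49 (SE 1.47) for Col25a1, 3.05 (SE 1.81) for Ano5, 2.37 (SE 0.91) for Wnk4, 5.61 (SE 2.13) for Iqcj and 4.95 (SE 2.02) for Prr5, with edgeR adjusted p from 0.189 to 0.451. Of the 5, 4 had an unadjusted edgeR p under 0.05, as did 2772 of all 18267 genes tested. In GF mice the log2 fold changes were 3.18, 2.31, 1.52, 2.78 and 0.57, with edgeR adjusted p from 0.500 to 0.956. There 0 of the 5 had an unadjusted edgeR p under 0.05, against 2009 of all 18267 genes. Without GF colonic non-neuronal replicate 2, Prr5 was at -3.08. The medians of these 5 were 3.49 and 2.31, beside 0.02 and 0.03 over all genes tested. The SPF result depended on the model: DESeq2 called Col25a1 and Wnk4 (2 members), and a fit on all 28 libraries called Col25a1, Wnk4, Iqcj and Prr5 (4 members). Calls over all genes, in either direction, also rose, from 199 to 1092 with DESeq2 and to 811 with all 28 libraries.

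Colonic libraries lay wholly above small intestinal ones for Wnk4 in SPF non-neuronal nuclei and for Col25a1 and Wnk4 in GF non-neuronal nuclei, that is 1 and 2 members, against 7.10% and 16.1% of genes. The 12 neuron markers moved the same way in this fraction. Their sum was 809 to 1791 CPM in the 7 colonic and 35.8 to 691 CPM in the 7 small intestinal non-neuronal libraries, with none of the 12 at 0. All 12 had log2 fold changes above 0 in both states, with medians of 2.45 and 2.68, and 1 was called in SPF and 0 in GF mice. The 8 epithelial markers summed to 102 to 1403 CPM in SPF colonic and 86.4 to 186 CPM in SPF small intestinal non-neuronal libraries, where 1 of the 8 was at 0, and to 246 to 633 against 55.2 to 777 CPM in GF mice, so both ranges overlapped. The 8 endothelial markers were separated in both states, at 512 to 1345 against 106 to 195 CPM in SPF and 804 to 1141 against 50.7 to 148 CPM in GF mice, with median log2 fold changes of 2.32 and 2.48 and with 2 called in SPF and 0 in GF mice. The 7 macrophage markers were too, at 121 to 275 against 29.1 to 84.8 CPM and 104 to 162 against 54.9 to 79.4 CPM, with 0 called and with 1 of the 7 at 0 in GF small intestine. The 10 smooth muscle markers were lower in GF colon, at 9546 to 13768 against 17929 to 20921 CPM, with 4 called lower. In SPF mice their ranges overlapped, at 9281 to 19269 against 15655 to 19317 CPM, with 2 called lower. The mitochondrial share of counts was also lower in the colon, at 3.49% to 7.44% in SPF colon against 11.1% to 12.9% in SPF small intestine and at 4.64% to 10.8% against 13.4% to 35.6% in GF mice. The part of RNA from these cells, or of the mitochondrial share, in the members' differences was not tested.

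**Figure D3:**
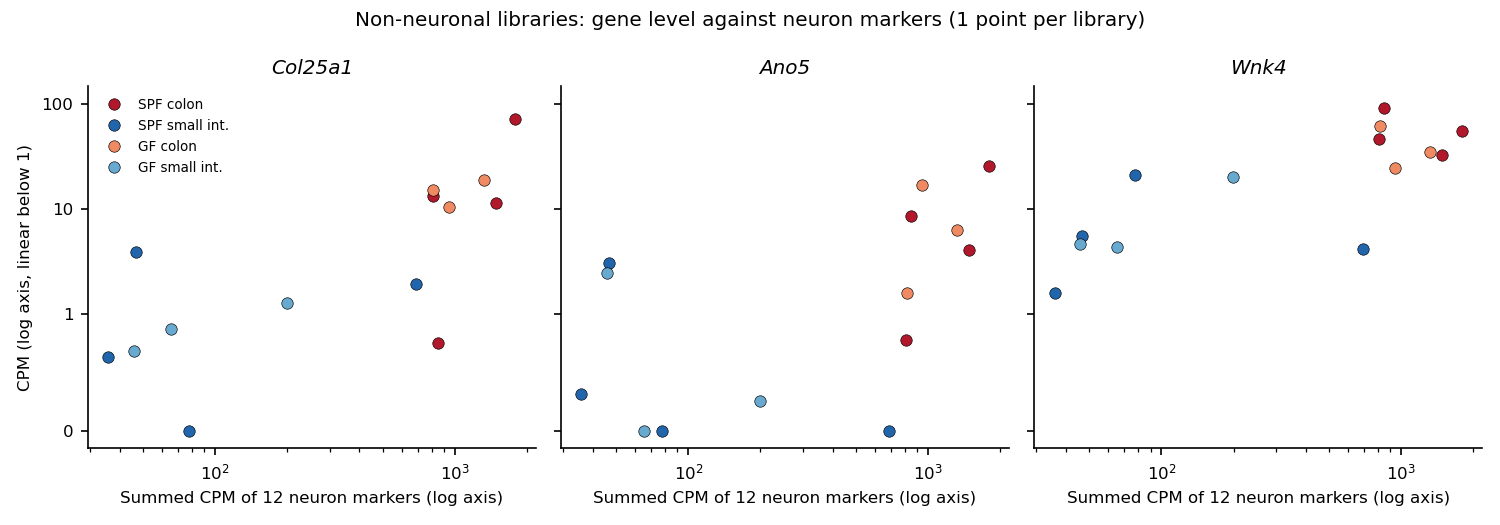
CPM of Col25a1, Ano5 and Wnk4 (log axis, linear below 1) against the summed CPM of 12 neuron markers (log axis) in the 14 non-neuronal libraries, coloured by group. Colonic libraries hold 809 to 1791 CPM of neuron markers and small intestinal ones 35.8 to 691 CPM, and Wnk4 is higher in each colonic library than in each small intestinal library of the same microbiota state.

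For Iqcj in this fraction 1 library stood apart. SPF colonic non-neuronal libraries held 6.64, 34.4, 3.92 and 0 CPM of Iqcj, and the second of these also held 79.5 CPM of the overlapping Iqschfp, which was at most 3.12 CPM in the others. In GF colonic non-neuronal libraries Iqcj held 0.454, 2.57 and 0 CPM, and small intestinal non-neuronal libraries held at most 0.317 CPM. Whether the reads of the high library belong to Iqcj or to the read-through form was not tested.

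The presence of a microbiota was compared as the mean of both segments, in each fraction. In neuronal nuclei, whose libraries also chose the members, the members' values are a description with no p. No member was called there, as 0% of all genes were: edgeR called 0 of 17298 genes, although 1087 had an unadjusted p under 0.05 and DESeq2 called 27. Log2 fold changes of SPF against GF were 0.0025 for Col25a1 (SE 0.33), -0.06 for Ano5 (SE 0.35), -0.59 for Wnk4 (SE 0.43), 0.76 for Kctd16 (SE 1.87), -0.67 for Iqcj (SE 0.43) and 0.73 for Prr5 (SE 0.53). The value for Kctd16 depends on the prior count of the fit, for the reason given above. In non-neuronal nuclei again 0% of genes were called, 0 of 18267, although 1401 had an unadjusted p under 0.05 and DESeq2 called 50. The 5 members tested ranged from -1.28 for Prr5 (SE 1.28) to 2.15 for Iqcj (SE 1.57) on the log2 scale, with edgeR adjusted p of 0.792 or more. All GF libraries lacked the high Xist of SPF replicates 3 and 4. With SPF replicates 1 and 2 only, no member was called in either fraction, and Kctd16 changed sign in neuronal nuclei to -0.74, as Wnk4 did in non-neuronal nuclei to -0.91.

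**Figure D4:**
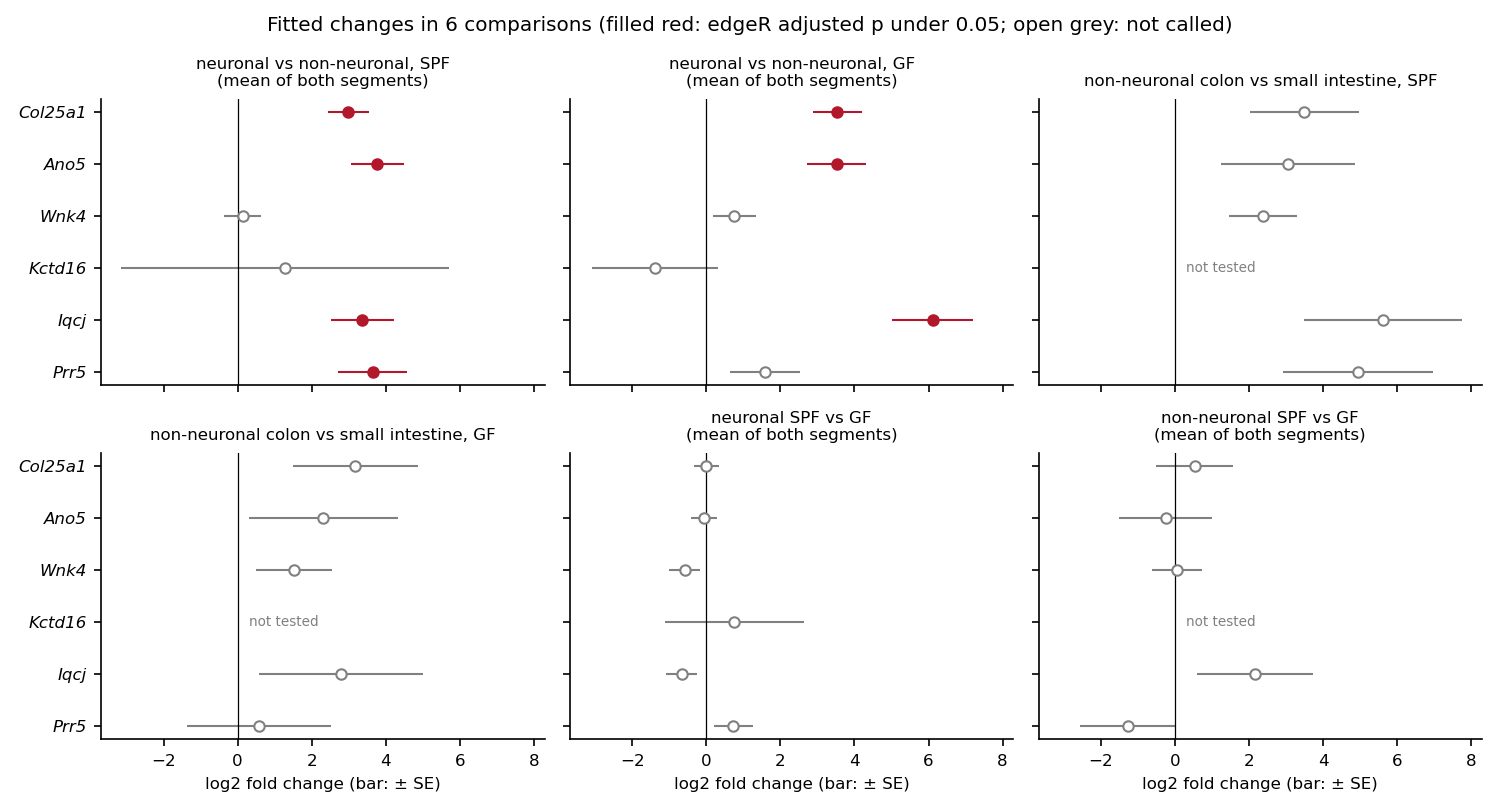
Log2 fold change of each gene in 6 comparisons, with bars of ± SE; filled red points are called at an edgeR adjusted p under 0.05. The 3 comparisons that include neuronal libraries are a description, since those libraries chose the genes, and a filled point there is no test of that gene. The points of Kctd16 depend on the prior count of the fit. Neuronal against non-neuronal nuclei calls 4 genes in SPF and 3 in GF mice, and the other comparisons call none.

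Relatives of each member were then looked at. Their calls were not looked at with SPF replicates 1 and 2 only. With these replicates, all genes called between segments in SPF non-neuronal nuclei fell from 199 to 40. Between fractions in SPF mice, all genes called fell from 5544 to 2407. A member's own call between segments in neuronal libraries follows from the choice of genes and does not set it apart from its relatives. Among 10 anoctamins, 9 were tested in neuronal libraries, and in each state no relative of Ano5 was called higher in the colon. Ano1, the chloride channel that marks interstitial cells of Cajal, the pacemaker cells of the gut wall, had a log2 fold change of -8.80 in SPF mice (SE 0.90, edgeR adjusted p = 5.04e-06) and of -6.12 in GF mice (SE 0.96, edgeR adjusted p = 0.00222). SPF colonic neuronal libraries held 0 to 1.62 CPM of Ano1 and SPF small intestinal ones 679, 106, 107 and 96.9 CPM. The 5 interstitial cell markers, of which Ano1 is 1, together summed to 347 to 504 CPM in SPF colonic and 708 to 2252 CPM in SPF small intestinal neuronal libraries, and to 299 to 443 against 461 to 688 CPM in GF mice. Of these 5 markers, 1 was called higher and 3 lower in SPF neuronal than non-neuronal nuclei, and 1 higher and 4 lower in GF ones. Their sum can therefore not be read as RNA of interstitial cells alone. The part of interstitial cell RNA in the Ano1 difference was not tested. Ano6, a scramblase present in many cells, stood at 19.5 to 25.6 CPM per kb in the 4 neuronal groups, near the 19.9 and 24.8 CPM per kb of Ano5 in the colonic ones, with log2 fold changes between segments of -0.49 in SPF and -0.23 in GF mice. Against non-neuronal nuclei, Ano6 was called higher in SPF neuronal nuclei (log2 fold change 1.04), and Ano1 and Ano9 lower in both states. That contrast averages the segments, which went opposite ways for Ano1 in SPF mice. Neuronal against non-neuronal means of Ano1 were 0.579 against 125 CPM in SPF colon and 247 against 168 CPM in SPF small intestine. In GF mice they were 0.735 against 143 CPM and 51.2 against 124 CPM. In all, 2 anoctamins were higher and 2 lower in SPF neuronal nuclei, where 13.3% of all genes were called lower, and 1 was higher and 3 lower in GF neuronal nuclei, where 12.7% were. In SPF non-neuronal nuclei Ano7 was higher in the colon by 6.17 (SE 1.12, edgeR adjusted p = 0.00388), at 19.5, 124, 49.1 and 78.6 CPM against 1.81 CPM or less.

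**Figure D5:**
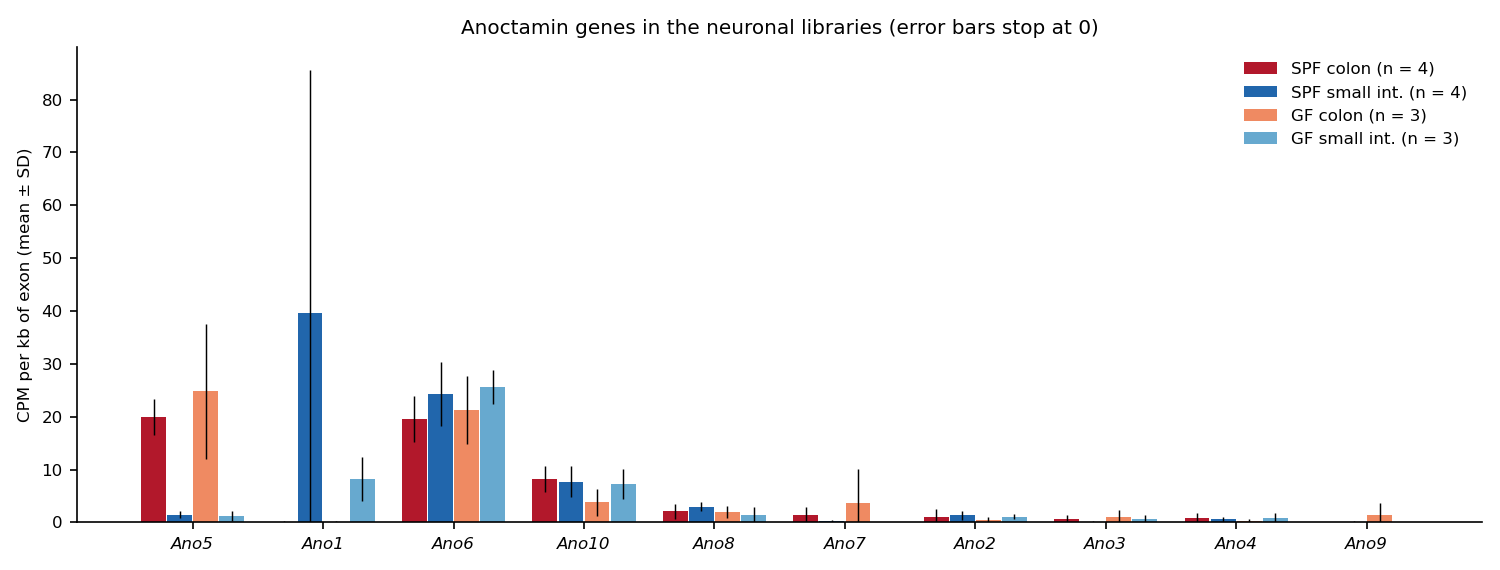
Mean CPM per kb of exon of the 10 anoctamin genes in the 4 neuronal groups, with bars of ± SD that stop at 0. Ano5 is high in both colonic groups, Ano1 in the small intestinal groups, where 1 SPF library at 679 CPM widens the spread, and Ano6 has a similar level in all 4 groups.

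Of 11 membrane collagens and collagen-like membrane proteins, 5 were tested in neuronal libraries, and no relative of Col25a1 was called between segments in either state. The 18.2 CPM per kb of Col25a1 in SPF colonic neuronal libraries was the highest of the list. Of the 9 tested between fractions, 1 was called higher and 3 lower in SPF neuronal nuclei, and 1 higher and 4 lower in GF ones. The 1 that was higher was Col25a1. Col23a1, Scara3 and Scara5 were lower in both states and Msr1 in GF mice.

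In the list of WNK kinases, their kinases SPAK and OSR1 and their transporters, 15 of 16 genes were tested in neuronal libraries. No relative of Wnk4 was called between segments. Wnk1, the highest of the list at 83.4 to 101 CPM per kb over the 4 neuronal groups, had a log2 fold change between segments of 0.05 (SE 0.17) in SPF mice. Wnk1 and the sodium chloride cotransporter Slc12a3, a target of the pathway in the kidney, were called higher in neuronal nuclei in both states, with log2 fold changes of 0.96 and 4.59 in SPF mice and 0.84 and 4.98 in GF mice. In all, 3 of 15 genes were called higher and 3 lower in SPF neuronal nuclei, and 2 and 2 in GF ones; Slc12a2 and Slc12a4 were lower in both states.

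Of the GABAB receptor genes and their KCTD subunits, 5 of 6 were tested in neuronal libraries, and no relative of Kctd16 was called between segments. Kctd8 nevertheless lay wholly higher in the colon in both states, as 3.66% and 5.16% of genes did. It stood at 10.3 to 15.7 against 3.01 to 8.77 CPM in SPF and 13.0 to 38.4 against 7.50 to 9.35 CPM in GF neuronal libraries. The receptor subunit Gabbr1 was the highest, at 43.6 to 55.3 CPM per kb in the 4 neuronal groups. Kctd8 (log2 fold change 4.25, edgeR adjusted p = 0.00878) and Gabbr2 (3.96, edgeR adjusted p = 0.00933) were higher and Kctd12b lower in SPF neuronal nuclei, and in GF mice none of the 6 was called. Gabbr2 in SPF colonic neuronal libraries stood at 140 CPM in replicate 1 and at 1.03 to 1.89 CPM in the others.

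Among Schip1, ankyrins and calmodulins, the partners of Iqcj, no gene was called between segments in neuronal libraries. Schip1, which the read-through transcript joins to Iqcj, averaged 27.0 against 13.2 CPM per kb in SPF and 14.5 against 11.1 CPM per kb in GF neuronal libraries of colon and small intestine. Ank2, an axonal ankyrin, was called higher in neuronal nuclei in both states (log2 fold changes 2.43 and 2.45) and higher in the colon in SPF non-neuronal nuclei (1.55, SE 0.35, edgeR adjusted p = 0.0255), where it stood at 1160 to 1596 CPM against 171 to 509 CPM.

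For mTOR complex 2, 13 of 14 genes were tested in neuronal libraries, and no relative of Prr5 was called between segments. Mapkap1, which encodes the subunit SIN1, stood at 25.5 to 37.6 CPM per kb over the 4 neuronal groups, and Rictor at 5.93 to 11.3. The paralog Prr5l did not exceed 0.185 CPM per kb in any of these groups. Between fractions, 1 of the 14 was called higher (Prr5) and 2 lower (Deptor and Prkca) in SPF neuronal nuclei, and 1 higher (Telo2) and 1 lower (Deptor) in GF ones.

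The genes whose levels were most like those of each member were ranked among 13907 genes by Pearson's r of log2(CPM + 1) over the 28 libraries. These values are a description, since libraries share fraction and segment. The lists depended on the measure. With log2(CPM + 0.1) or Spearman's rho, at most 1 of a member's 3 genes was kept in 8 of 12 alternatives. Col25a1 was closest to Ano5 (r = 0.904), Iqcj (r = 0.893) and the cell adhesion gene Kirrel3 (r = 0.878). Ano5 was closest to Col25a1, to the neurotrophin receptor gene Ntrk3 (r = 0.874) and to Klf7 (r = 0.851). Iqcj was closest to Slitrk4 (r = 0.894), Col25a1 and Gng4 (r = 0.891), and Prr5 to Slc44a5 (r = 0.806), Morn4 (r = 0.797) and Klf7 (r = 0.797). Wnk4 was closest to the POU-domain factor gene Pou3f3 (r = 0.806), Pi16 (r = 0.775) and Exosc7 (r = 0.755). Kctd16 was closest to Cntnap4 (r = 0.722), Cbln4 (r = 0.708) and Cd164l2 (r = 0.698), but Spearman's rho for these was only 0.425, 0.460 and 0.290. Between members, r over the 14 neuronal libraries ran from 0.553 for Wnk4 with Prr5 to 0.942 for Col25a1 with Ano5, values that the shared segment difference contributes to.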

How the data were processed

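Nuclear RNA of 28 libraries was amplified (8 PCR cycles) and sequenced in single-end reads of 75 bases, per the labels' protocols. The deposited table by the authors holds RSEM-style expected counts, estimates in which a read matching several genes is divided, and 7.48% of its values were not whole. The submitters' processing notes name GRCm38, STAR 2.5.2, RSEM 1.3.0 and DESeq2 1.10.1 without a role. Use of strand in counting was not stated in these sources, and antisense genes share exon bases with Wnk4 and Kctd16.

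Expected counts were rounded. Names came from GENCODE M21 for 51719 genes. CPM were taken over the library total, and CPM per kb over the summed exon length. Floors of 3 counts per library cover counting error only, since the libraries carry no molecular identifiers. Genes were tested with edgeR 4.0.16 (R 4.3.3): quasi-likelihood F test, TMM, filterByExpr by group, robust, two-sided, p-values adjusted over all genes and called under 0.05. Members have no p in comparisons that include neuronal libraries, which chose them. Comparisons within a fraction used its 14 libraries, and those between fractions all 28. SE was derived from the log2 fold change and its F. The edgeR fit was run on simulated counts for some of the comparisons, and no statement here rests on that. The labels do not tie libraries to separate animals, so p-values measure the spread between libraries, which may be technical. Of 36 library pairs within groups, 0 were identical.

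The members, the gene lists and the tests were chosen with earlier results of these data known. Family genes are named if called in a tested comparison (at most 4 per list and comparison) or if highest per kb in neuronal libraries. Schip1, Rictor and Prr5l, and Ano6 beyond its call, were added after their values were seen. The 3 genes most alike to each member were sought among those averaging 5 CPM or more in some group. Promoters come from RefSeq GRCm38.p6, and 5 of the 6 members matched. Alternatives were RLE factors, DESeq2 1.42.0, limma-voom (limma 3.58.1), other filters, a replicate block, other libraries in the fit and leaving out each library. A fit with SPF replicates 1 and 2 only was chosen after seeing the data. Replicate numbers did not pair the libraries: in 0 of 16 pairs of groups did every same-numbered pair deviate together, with r from -0.0691 to 0.0837.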

Additional observations from a re-analysis of the deposited data

Results flagged for a closer look

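In groups of 4 libraries, a library far from the others was looked for in 23 sets of values of the 6 genes, and 3 were found. For values with a normal distribution, chance gives about 1 in 20. Counts this sparse do not follow one: where 3 libraries are at 0, any count in the remaining one stands apart. Kctd16 stood at 75.1 CPM (293 counts) in SPF colonic neuronal replicate 3, where the next library held 4.06 CPM. Ano5 stood at 3.06 CPM (11 counts) in SPF small intestinal non-neuronal replicate 3, where the next held 0.317 CPM. Kctd16 stood at 0.226 CPM (1 count) in SPF small intestinal non-neuronal replicate 4, where the others held 0.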

How the results depend on the processing

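The description of fractions is no test of the members. In it, Col25a1 and Ano5 stayed called higher in neuronal nuclei under all 24 alternatives in SPF and all 19 in GF mice, and Iqcj under all 19 in GF mice. Other counts moved, and the cause was not tested. Members called higher in the colon in SPF non-neuronal nuclei were 2 with DESeq2 and 4 with all 28 libraries fitted, against 0. All genes called there, in either direction, rose from 199 to 1092 and to 811. Members called in SPF neuronal nuclei against non-neuronal ones were 2 with SPF replicates 1 and 2 only, against 4. For the segment difference in neuronal nuclei, which chose the members, the SPF count of 6 became 1 with all 28 libraries fitted, 2 with SPF replicates 1 and 2 only and 3 to 6 when 1 library was left out, and the GF count of 3 became 0 with all 28.

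Genes called between segments in SPF non-neuronal nuclei, 199, were 1092 with DESeq2, 330 with limma-voom, 579 without a low-count filter, 319 with the replicate block, 811 with all 28 libraries, 40 with SPF replicates 1 and 2 only and 79 to 292 without 1 library. In GF non-neuronal nuclei, 130 genes became 526, 260, 303, 207 and 309 in the same order up to all 28 libraries, and 44 to 163 without 1 library. In SPF neuronal nuclei, 113 genes became 431 with DESeq2, 179 with limma-voom, 298 without the filter, 20 with SPF replicates 1 and 2 only and 57 to 119 without 1 library. In GF neuronal nuclei, 52 genes became 355 with DESeq2, 173 without the filter, 33 with all 28 libraries and 24 to 58 without 1 library. Between microbiota states, 0 genes in neuronal nuclei became 27 with DESeq2, 34 without the filter, 1 with the replicate block, 2 with SPF replicates 1 and 2 only and 0 to 1 without 1 library. In non-neuronal nuclei 0 became 50 with DESeq2, 65 without the filter, 1 with the replicate block and 0 to 11 without 1 library. Between fractions in SPF mice, 5544 genes became 2407 with SPF replicates 1 and 2 only.

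Signs changed only for uncalled values. For SPF against GF in neuronal nuclei, the log2 fold change of Col25a1 was -0.14 with limma-voom, -0.0229 without the filter, -0.0171 with all 28 libraries and -0.17 to 0.14 without 1 library. Ano5 was at 0.17 with limma-voom, 0.0682 with the replicate block and -0.26 to 0.35 without 1 library, and Kctd16 at -0.74 with SPF replicates 1 and 2 only and -0.66 to 1.59 without 1 library. In non-neuronal nuclei Col25a1 was at -0.55 with limma-voom and -0.17 to 0.74 without 1 library, Ano5 at 0.0255 with the replicate block and -1.57 to 1.28, Wnk4 at -0.0593 with limma-voom, -0.68 with the block, -0.91 with SPF replicates 1 and 2 only and -0.53 to 0.36, and Prr5 at -1.58 to 0.58. Between segments in GF non-neuronal nuclei Prr5 was at -3.08 to 2.40 without 1 library. Between fractions in SPF mice Wnk4 was at -0.0048253 with only SPF libraries fitted and -0.0698 to 0.71 without 1 library, and Kctd16 at -0.13 to 2.36. In GF mice Kctd16 was at 0.67 with limma-voom and -2.21 to 0.94. The replicate block changed no call of a member outside the segment difference in neuronal nuclei. Depth limits Kctd16, which held 3 counts or fewer in 18 of the 28 libraries.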
